A study of Homo sapiens with 18 samples.

Results

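The genes described here are 9 genes of the MHC class I antigen presentation pathway, taken by symbol from the deposited count table: the classical heavy chains HLA-B and HLA-C, the non-classical heavy chains HLA-E and HLA-F, the light chain B2M, the peptide transporter subunit TAP1, the immunoproteasome subunits PSMB8 and PSMB9, and the transactivator NLRC5. They are 9 of the 57500 genes in the table, and all 9 were among the 16994 genes that passed the filter on low counts. The data were 18 RNA-seq libraries of IMR90 human fetal lung fibroblasts, in 6 groups of 3. Per the study's methods, the cells had been engineered so that CCCP, an uncoupler that collapses the mitochondrial membrane potential, leads to clearance of their mitochondria. The group Prol held proliferating cells, and Sen (IR) held cells made senescent by ionising irradiation. The other 4 groups were irradiated cells treated with CCCP, named here Sen (IR) + CCCP, Sen (IR) + CCCP + acetate, Sen (IR) + CCCP + mtDNA and Sen (IR) + CCCP + acetate + mtDNA (the combination). Acetate was supplied in the medium as a source of acetyl-CoA, and mtDNA, purified mitochondrial DNA, was delivered with a transfection reagent. The labels give no doses or times and name no group transfected with the reagent alone or with another DNA, so the mtDNA and its delivery cannot be told apart. All groups came from 1 cell line. The study describes its in vitro experiments as repeated independently, whereas the labels give only replicate numbers and do not tie a library to a culture, so p-values measure the spread between these libraries.

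MHC class I molecules display peptides from inside the cell to CD8+ T cells and natural killer cells. Proteasomes cut cytosolic proteins into peptides, the TAP1–TAP2 transporter carries the peptides into the endoplasmic reticulum, and there they are loaded onto a heavy chain paired with B2M before the complex moves to the cell surface. Most nucleated cells, fibroblasts included, make class I constitutively, and interferons raise nearly every step of the pathway through factors that include IRF1 and NLRC5. NLRC5 acts with RFX proteins, NF-Y and ATF/CREB factors on the SXY module of class I promoters, and PSMB8 and PSMB9 replace constitutive catalytic subunits to form the immunoproteasome. Cytosolic DNA is a known trigger of interferon through cGAS and STING, and acetyl-CoA is the donor for histone acetylation, which are the inputs the study set side by side.

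Total counts ranged from 24624886 to 46224280 per library (median 29620505.5). The 13 protein-coding genes of mtDNA took 1.75% to 2.89% of counts in the Prol and Sen (IR) libraries and 0.0461% to 0.237% in the 12 CCCP libraries. Their share was 0.114% to 0.136% after CCCP alone and lower, 0.0461% to 0.0534%, in the Sen (IR) + CCCP + mtDNA libraries. Combination replicate 2 stood apart from its group: its mtDNA share was 0.237%, against 0.0640% and 0.0624% in replicates 1 and 3, and its 9 class I genes lay on average 0.49 above their group means on the log2 scale. Over all tested genes its median absolute deviation from the group mean was 0.105 on the log2 scale, against 0.114 for Sen (IR) replicate 3. Combination replicate 2 was thus set apart by its mtDNA share and by the class I genes themselves. The comparisons and ratios of the 9 genes in the combination are given with and without that library, and values without it are a description. Fibroblast markers were abundant (COL1A1, COL1A2 and VIM among them), whereas the leukocyte markers, including the pan-leukocyte gene PTPRC with at most 10 counts in any library and the T cell gene CD3E with at most 1, summed to no more than 1.54 CPM (counts scaled by TMM library size). Of these, CD14 alone passed the filter, with at most 27 counts (0.900 CPM), and was called higher with acetate than after CCCP alone (log2 1.39). The epithelial marker EPCAM had at most 129 counts (3.03 CPM) and the endothelial marker VWF at most 23 (0.792 CPM). The proliferation gene MKI67 was at a mean of 59.1 CPM in Prol, 15.3 in Sen (IR), 30.4 in Sen (IR) + CCCP, 3.19 with acetate, 26.1 with mtDNA and 4.80 in the combination. The part of these differences in cell state in the results on class I was not tested.

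Of the 9 genes, 7 are on chromosome 6 in the MHC. On GRCh38, HLA-F is at chr6:29722775-29738528, HLA-E at chr6:30489509-30494194, HLA-C at chr6:31268749-31272130 and HLA-B at chr6:31353872-31367067. PSMB8 (chr6:32840717-32844679), PSMB9 (chr6:32844136-32859851) and TAP1 (chr6:32845209-32853816) lie together, and the annotated spans of TAP1 and PSMB9, on opposite strands, overlap by 8608 bases. B2M is at chr15:44711358-44718851 and NLRC5 at chr16:56989485-57083531. The study's methods say that strand was used in counting where a library kept it but not whether these libraries did, so it is not known whether reads from overlapping genes on opposite strands were told apart. Reads that map to more than 1 place were not counted, so reads may be lost where heavy chain genes share sequence.

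RefSeq promoter windows (250 bases before to 50 after the start site, GRCh38.p14) were matched for 7 of the 9 genes, in 9 windows. The 5 sequences below are the 250 bases before the start site of HLA-B, HLA-C, HLA-F, B2M and TAP1, read 5′ to 3′ on the strand of the gene. Among these 5, HLA-B, HLA-C and B2M held matches to both the X2 core and the Y box described next. Capitals mark matches, on either strand, to 5 motifs: an interferon-stimulated response element core (GAAANNGAA), a relaxed form of it (AANNGAAA) that overlaps the core, an NF-kB site (GGNNTTNCC), the core of the X2 box (TGACG) and the Y box (CCAAT).
HLA-B, chr6:31357180-31357429 (minus strand): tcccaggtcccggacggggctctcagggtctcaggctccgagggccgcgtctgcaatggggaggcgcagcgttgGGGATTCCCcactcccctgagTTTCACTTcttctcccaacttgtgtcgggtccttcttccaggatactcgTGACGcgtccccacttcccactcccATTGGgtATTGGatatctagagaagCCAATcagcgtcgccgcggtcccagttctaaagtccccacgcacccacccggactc
HLA-C, chr6:31272093-31272342 (minus strand): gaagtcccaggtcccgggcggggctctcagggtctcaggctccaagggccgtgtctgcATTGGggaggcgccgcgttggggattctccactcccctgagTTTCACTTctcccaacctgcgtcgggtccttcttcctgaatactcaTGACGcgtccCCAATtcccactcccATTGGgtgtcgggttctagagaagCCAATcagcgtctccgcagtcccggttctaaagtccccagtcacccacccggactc
HLA-F, chr6:29723184-29723433 (plus strand): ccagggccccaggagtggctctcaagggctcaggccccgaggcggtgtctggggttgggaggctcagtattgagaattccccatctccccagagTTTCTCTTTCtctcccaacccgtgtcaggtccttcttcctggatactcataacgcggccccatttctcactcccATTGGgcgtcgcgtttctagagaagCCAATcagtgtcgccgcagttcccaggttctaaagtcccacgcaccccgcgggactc
B2M, chr15:44711267-44711516 (plus strand): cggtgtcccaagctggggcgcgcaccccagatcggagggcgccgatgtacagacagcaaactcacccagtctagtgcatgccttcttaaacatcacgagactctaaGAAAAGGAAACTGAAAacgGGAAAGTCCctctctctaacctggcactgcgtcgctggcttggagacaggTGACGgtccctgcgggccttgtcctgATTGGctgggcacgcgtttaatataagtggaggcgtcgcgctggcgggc
TAP1, chr6:32853705-32853954 (minus strand): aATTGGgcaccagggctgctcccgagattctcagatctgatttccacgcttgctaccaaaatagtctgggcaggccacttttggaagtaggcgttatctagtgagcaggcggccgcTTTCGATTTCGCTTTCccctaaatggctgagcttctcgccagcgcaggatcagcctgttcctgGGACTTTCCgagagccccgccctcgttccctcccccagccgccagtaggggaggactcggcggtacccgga

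HLA-B and HLA-C were identical over 88.98% of the aligned positions, and HLA-F matched HLA-B over 80.39% and HLA-C over 78.68%. In HLA-B the relaxed interferon element (-155 to -148) preceded the X2 core (-106 to -102) towards the start site. A Y box on the opposite strand to the X2 core followed at -81 to -77. HLA-C and B2M had the same order of these 3 matches, with the opposite-strand Y box at -80 to -76 and at -49 to -45. HLA-B and HLA-C also had a Y box on the strand of the X2 core at -56 to -52. The HLA-F window held the response element core and the Y boxes but no match to the X2 core or NF-kB letters. TAP1 had a pair of overlapping response element cores (-133 to -119) and an NF-kB match (-71 to -63). The start sites of TAP1 and PSMB9 were 488 bases apart on opposite strands, so the printed TAP1 sequence lies between them. The PSMB9 window, which is not printed, matched the X2 core and the Y box but neither interferon element nor the NF-kB letters.

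The response element core was found in 4 of the 9 windows and in 8.107% of all 35116 windows, the relaxed form in 6 of 9 and 22.83%, the NF-kB letters in 5 of 9 and 17.13%, the X2 core in 5 of 9 and 24.55%, and the Y box in 6 of 9 and 34.61%. These are matches to letters and no measure of binding.

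**Figure D1:**
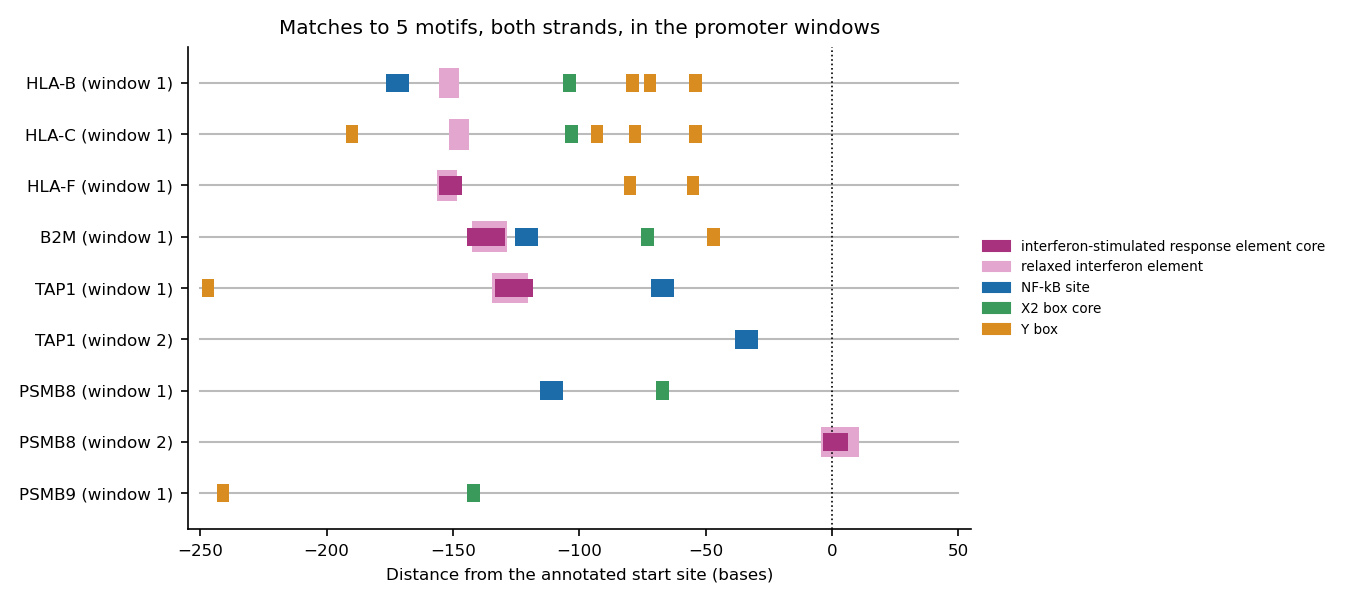
Positions of matches to the 5 motifs (coloured boxes) in the 9 promoter windows of 7 class I pathway genes, by distance from the annotated start site in bases. HLA-B, HLA-C and B2M show the relaxed interferon element, X2 core and Y box in order, whereas the second TAP1 window holds an NF-kB match alone.

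Levels differed widely between the genes. Compared per length, in the authors' TPM (a count scaled by gene length and library), B2M had the highest mean in Prol at 948 ± 20.6 TPM (SD, n = 3), followed by HLA-B at 494 ± 17.9, HLA-E at 443 ± 6.46 and HLA-C at 414 ± 9.56. TAP1 (58.2 ± 2.88), PSMB8 (50.6 ± 4.27), PSMB9 (12.5 ± 1.10), NLRC5 (5.14 ± 0.561) and HLA-F (1.10 ± 0.0479) were lower, and no neighbours in this order overlapped in Prol. The order from TAP1 down to HLA-F was the same in all 6 groups, with overlap there only between PSMB9 and NLRC5 in the combination. Among the abundant genes the order moved: HLA-B lay above HLA-C in Prol but below it in Sen (IR) + CCCP, at 169 ± 2.95 against 209 ± 1.59 TPM, without overlap. In the same CCCP group B2M (429.5 ± 26.4 TPM) and HLA-E (425 ± 3.13 TPM) overlapped. HLA-F, a heavy chain of limited surface expression, rested on only 9 to 57 counts per library, the fewest of the 9 genes.

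**Figure D2:**
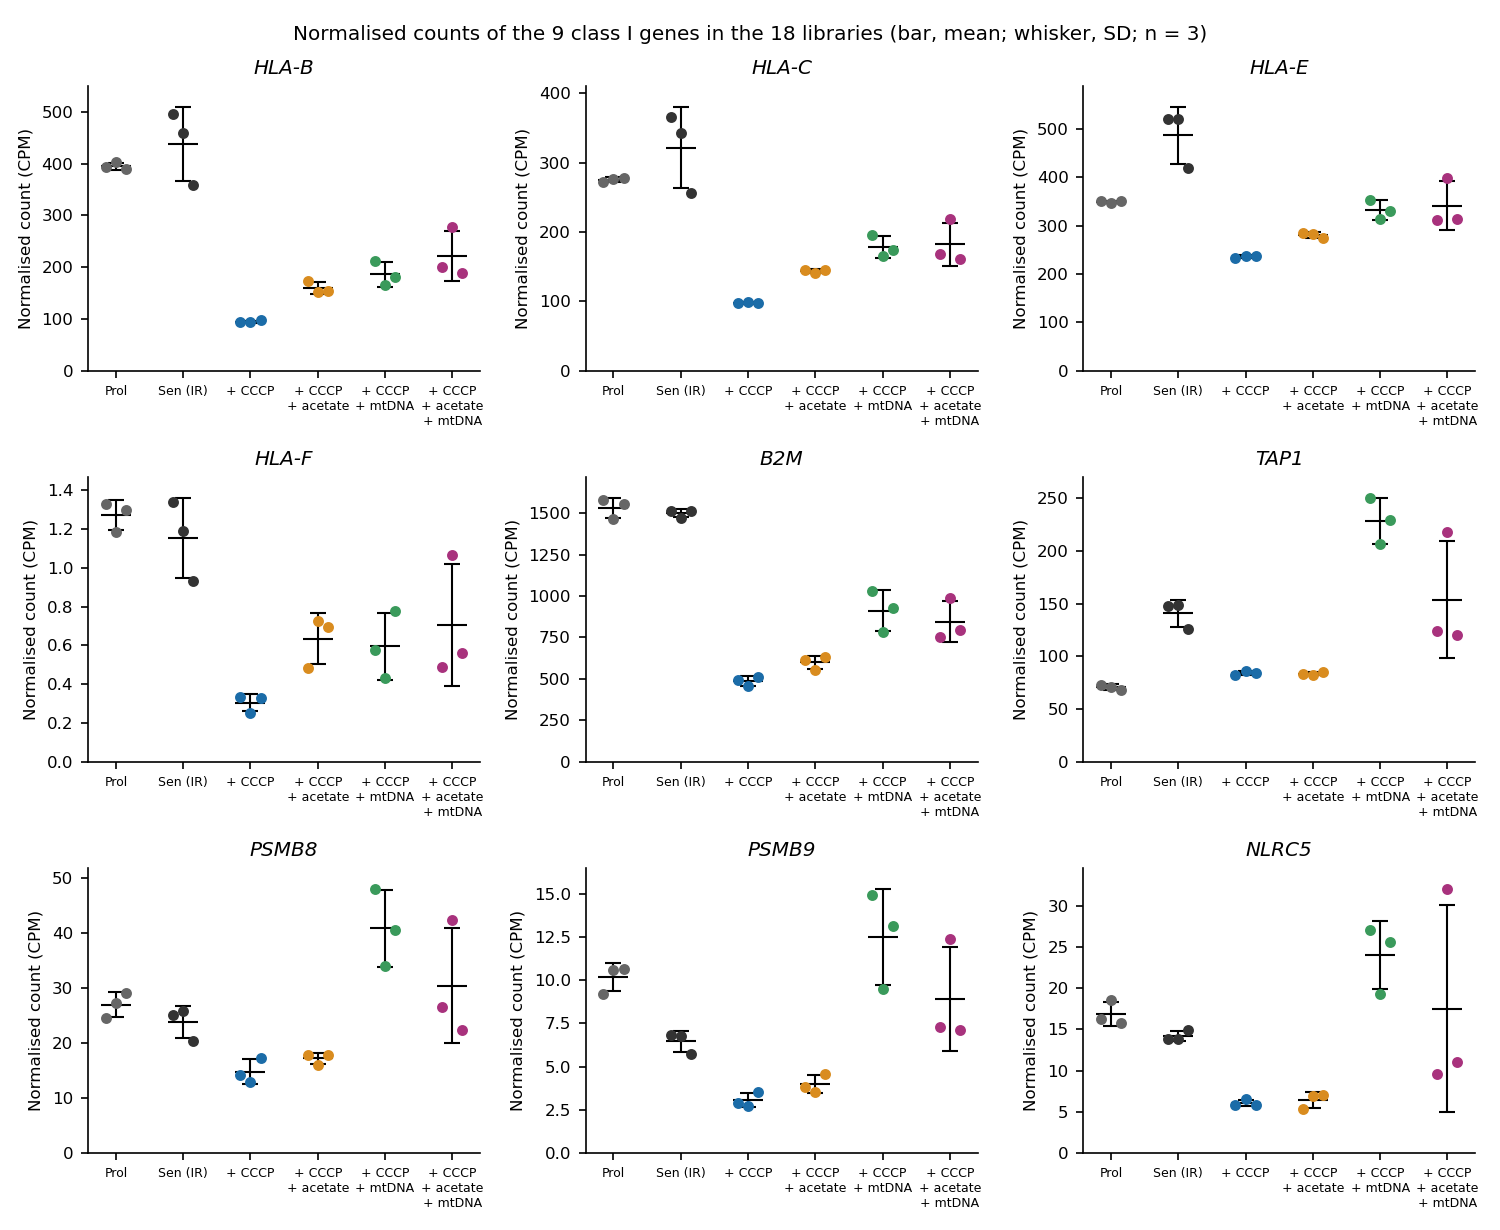
Normalised counts (CPM) of the 9 genes in each of the 18 libraries by group, with the mean (bar) and SD (whisker), n = 3; each vertical axis starts at 0. All 9 genes are low in Sen (IR) + CCCP relative to Sen (IR), and in the mtDNA group TAP1, PSMB8, PSMB9 and NLRC5 lie above the Sen (IR) points; combination replicate 2 is the highest point of its group in every panel.

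The comparison of Sen (IR) with Prol asks how class I expression differed in senescence itself. Irradiated senescent cells carried more TAP1 and HLA-E and less PSMB9 than proliferating cells. TAP1, which moves peptides into the endoplasmic reticulum, was at 73.1, 71.3 and 67.6 CPM in the Prol libraries and 147, 149 and 126 in the Sen (IR) libraries. The groups did not overlap, and the fitted rise was 1.99-fold (log2 0.99 ± 0.14 (SE), adjusted p = 3.59e-06). HLA-E, a ligand of the NKG2A receptor of natural killer cells, rose by 0.48 ± 0.08 on the log2 scale (adjusted p = 2.97e-05), and PSMB9 fell by 0.66 ± 0.18 (adjusted p = 0.00352). The other 6 did not pass the threshold: their log2 fold changes ran from -0.24 ± 0.27 for NLRC5, whose groups did not overlap, to 0.23 ± 0.10 for HLA-C, and B2M was at -0.03 ± 0.09. So 2 of 9 were called higher and 1 lower, where 26.7% of all tested genes were called higher and 29.9% lower. Without Sen (IR) replicate 3, in which the heavy chains were lowest, HLA-B (0.27, adjusted p = 0.0436) and HLA-C (0.36, adjusted p = 0.00106) were called higher as well. The summed level of the 8 fibroblast markers was 37074–40792 CPM in Prol and 20345–25271 in Sen (IR), and its part in these differences was not tested.

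The comparison of Sen (IR) + CCCP with Sen (IR) asks how class I expression differed in senescent cells treated with CCCP to clear their mitochondria. The labels name no group given CCCP without clearance, so the uncoupler and the loss of mitochondria cannot be told apart. All 9 genes fell. HLA-B was at 496, 460.0 and 359 CPM in Sen (IR) and 93.5, 94.4 and 97.0 in Sen (IR) + CCCP, a 4.62-fold fall (log2 -2.21 ± 0.12, adjusted p = 6.84e-13). For B2M, without which heavy chains do not reach the surface, Sen (IR) libraries held 1514, 1473 and 1516 CPM and CCCP libraries 495, 456 and 514, a 3.07-fold fall (log2 -1.62 ± 0.09, adjusted p = 8.37e-13). Neither gene overlapped between the groups, and the CCCP libraries were within a narrow range. HLA-F fell by 1.93 ± 0.32 on the log2 scale, HLA-C by 1.72 ± 0.11, and HLA-E by 1.04 ± 0.08.

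NLRC5 and the processing genes fell as well, TAP1 and PSMB8 by the smallest amounts among the 9. NLRC5 was at 13.9, 13.9 and 14.9 CPM in Sen (IR) and at 5.85, 6.51 and 5.77 after CCCP (log2 -1.23 ± 0.30, adjusted p = 0.00100). PSMB9 fell by 1.10 ± 0.20, TAP1 by 0.74 ± 0.14 and PSMB8 by 0.70 ± 0.17 on the log2 scale, with adjusted p between 6.12e-05 and 0.00116 for these 3 genes. For each of the 9 genes the highest CCCP library lay below the lowest Sen (IR) library. The count of 9 of 9 lower stands against 31.3% of all tested genes called lower and 34.0% called higher, and the median log2 fold change was -1.23 for the 9 genes and 0.03 for all tested genes. In bulk RNA, fewer expressing cells and less RNA per cell cannot be told apart.

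The scale of this fall depended on the normalisation. In log2(TPM + 1), the median of all tested genes lay 0.35 higher in Sen (IR) + CCCP than in Sen (IR), and the differences of TAP1 (-0.31, adjusted p = 0.0710) and PSMB8 (-0.26, adjusted p = 0.194) did not pass the threshold with limma. Relative to that median all 9 were lower, from -0.61 for PSMB8 to -2.11 for HLA-B. The 8 fibroblast markers were all called lower in the same comparison (median log2 fold change -2.29), their summed level going from 20345–25271 to 6586–6880 CPM with none at 0, and their part in the result was not tested. Against Prol, 8 of the 9 genes were lower in Sen (IR) + CCCP (34.1% of all tested genes were lower and 35.1% higher), and TAP1 was at 0.25 ± 0.14 (adjusted p = 0.119), although every CCCP library lay above every Prol library. On the TPM scale the split was 6 lower and 1 higher, the latter TAP1, and no share of all genes is given on that scale.

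**Figure D3:**
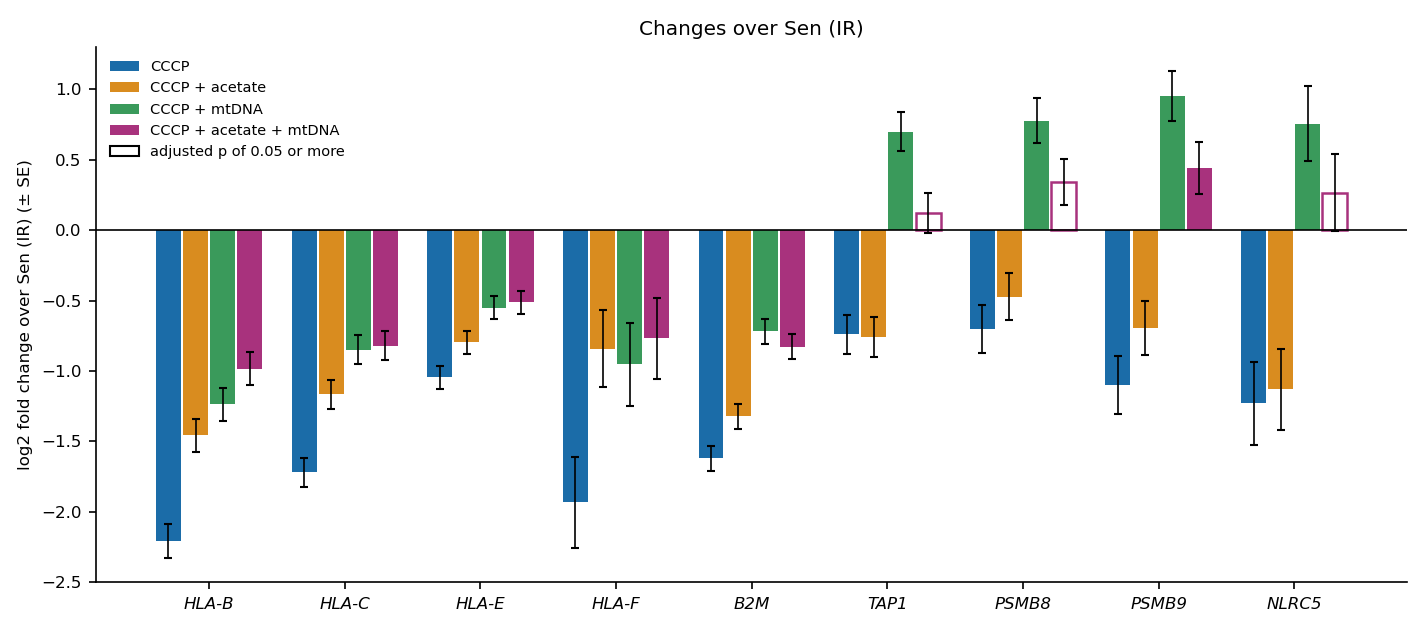
Log2 fold change over Sen (IR) of the 9 genes in the 4 CCCP groups (bars, edgeR estimate; whiskers, SE); open bars have an adjusted p of 0.05 or more. All 9 bars for CCCP and for CCCP + acetate point down, whereas those for CCCP + mtDNA point up for TAP1, PSMB8, PSMB9 and NLRC5.

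The next comparisons ask how far acetate, mtDNA or both moved class I expression in senescent cells after CCCP. They share the 3 Sen (IR) + CCCP libraries, so their values are given side by side. Acetate raised the heavy chains and B2M but none of the other 4 genes past the threshold. HLA-B was at 173, 152 and 154 CPM with acetate, all above the CCCP libraries at 93.5, 94.4 and 97.0 (log2 0.75 ± 0.12, adjusted p = 1.24e-05). HLA-F rose by 1.09 ± 0.34 (adjusted p = 0.00843), HLA-C by 0.56 ± 0.10 (adjusted p = 9.69e-05), B2M by 0.30 ± 0.09 (adjusted p = 0.00628) and HLA-E by 0.25 ± 0.08 (adjusted p = 0.0118), all on the log2 scale. TAP1 was at 83.2, 81.9 and 84.6 CPM with acetate and 82.5, 86.2 and 83.9 without (log2 -0.02 ± 0.14, adjusted p = 0.928). NLRC5 (0.10 ± 0.31), PSMB8 (0.23 ± 0.17) and PSMB9 (0.40 ± 0.21, groups without overlap) did not pass the threshold. Acetate thus gave 5 of 9 higher and 0 lower by edgeR, against 28.8% higher and 28.3% lower among all tested genes, and the median log2 fold change was 0.30 for the 9 genes and 0.01 for all tested genes. At an unadjusted p under 0.05 the counts were also 5 and 0. In TPM with limma, HLA-B, HLA-C and HLA-F were called and HLA-E (0.15) and B2M (0.20) were not. The 8 fibroblast markers summed to 4996–5231 CPM with acetate, against 6586–6880 after CCCP alone and 5939–6208 with mtDNA. They did not move together with acetate: 3 were called higher and 4 lower, with a median log2 fold change of -0.02. Among all tested genes 28.8% were higher and 28.3% lower, and the part of these markers was not tested.

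mtDNA raised 8 of the 9 genes, most of all the processing genes and NLRC5. PSMB9, which replaces PSMB6 in the immunoproteasome, was at 2.90, 2.73 and 3.52 CPM in the CCCP libraries and 14.9, 9.48 and 13.1 with mtDNA, a 4.15-fold rise (log2 2.05 ± 0.19, adjusted p = 7.63e-08). NLRC5 was at 27.1, 19.3 and 25.7 CPM with mtDNA, a 3.97-fold rise (log2 1.99 ± 0.29, adjusted p = 3.21e-05). Every mtDNA library of both genes lay above every CCCP library. PSMB8 rose by 1.48 ± 0.17 and TAP1 by 1.44 ± 0.14, the latter to 249.6, 207 and 229 CPM.

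Among the heavy chains and B2M the rise with mtDNA was smaller. HLA-B rose by 0.97 ± 0.12 to 211, 165 and 181 CPM, B2M by 0.90 ± 0.09 to 1029, 781 and 928 CPM, HLA-C by 0.87 ± 0.10 and HLA-E by 0.49 ± 0.08, on the log2 scale. HLA-F, with 12 to 24 counts per library, was at 0.98 ± 0.36 and did not pass the threshold (adjusted p = 0.0622). It passed without mtDNA replicate 2 (1.17, adjusted p = 0.0426), the library lowest for all 9 genes in its group. The count of 8 of 9 higher and 0 lower stands against 10.7% and 7.40% of all tested genes, and against 9 higher and 0 lower at an unadjusted p under 0.05. The median log2 fold change was 0.98 for the 9 genes and 0.00 for all tested genes.

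With acetate and mtDNA together all 9 genes were above Sen (IR) + CCCP. PSMB9 (7.27, 12.4 and 7.11 CPM; log2 1.54 ± 0.20), NLRC5 (9.53, 32.1 and 11.0 CPM; 1.5 ± 0.30) and HLA-B (200.2, 277 and 188 CPM; 1.22 ± 0.12) rose the most. Replicate 2 was the highest library of the group for each. HLA-F (1.17 ± 0.35), PSMB8 (1.04 ± 0.17), HLA-C (0.90 ± 0.10), TAP1 (0.86 ± 0.14), B2M (0.79 ± 0.09) and HLA-E (0.53 ± 0.08) followed, with adjusted p between 1.10e-08 for HLA-B and 0.00648 for HLA-F over the 9 genes. The background was 30.3% higher and 31.4% lower. Without replicate 2, 8 of the 9 remained higher (29.0% of all tested genes in that fit), HLA-F (0.80, adjusted p = 0.0721) being the exception, and NLRC5 was at 0.77 in place of 1.5.

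**Figure D4:**
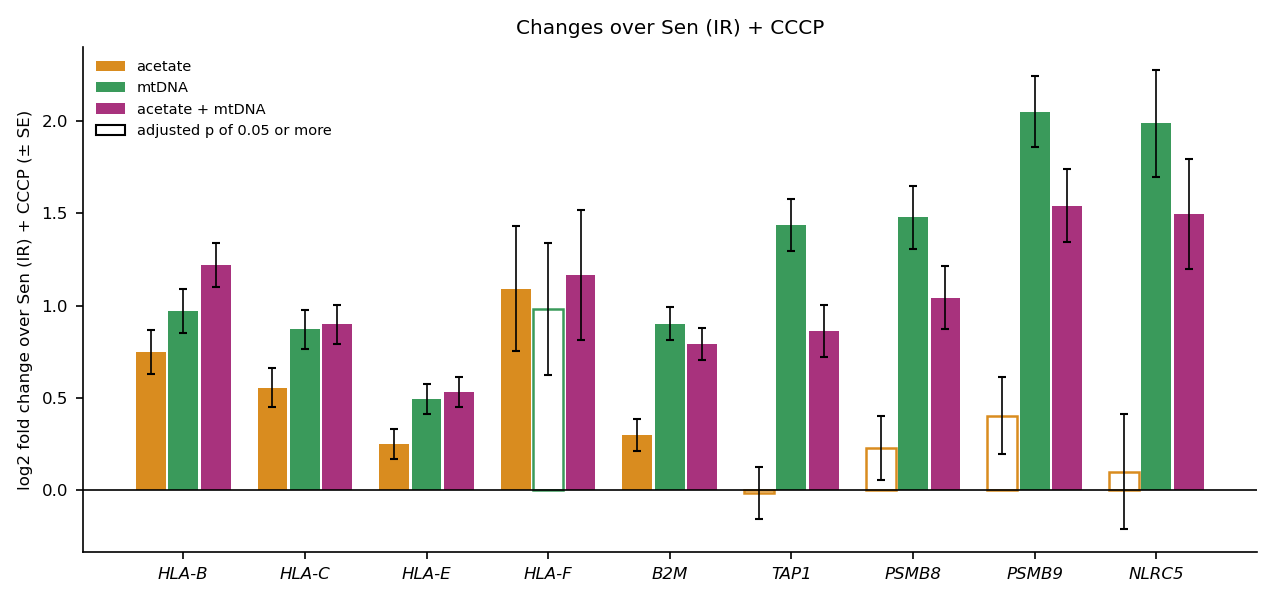
Log2 fold change over Sen (IR) + CCCP of the 9 genes with acetate, mtDNA or both (bars, edgeR estimate; whiskers, SE); open bars have an adjusted p of 0.05 or more. The acetate bars of TAP1, PSMB8, PSMB9 and NLRC5 are open and the mtDNA bars of these 4 genes reach 1.44 to 2.05.

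Each addition was also compared with the other already present. Adding mtDNA to acetate raised 8 of the 9 genes (6.57% of all tested genes were higher and 6.0% lower), with NLRC5 at 1.40 ± 0.29, PSMB9 at 1.14 ± 0.19, TAP1 at 0.88 ± 0.14 and PSMB8 at 0.81 ± 0.17. The heavy chains and B2M rose by less: B2M by 0.49 ± 0.09, HLA-B by 0.47 ± 0.12, HLA-C by 0.34 ± 0.10 and HLA-E by 0.28 ± 0.08, and HLA-F differed by 0.07 ± 0.30. Without combination replicate 2 the number called higher was 5, against 4.89% of all tested genes in that fit: B2M (0.37), TAP1 (0.55), PSMB8 (0.52), PSMB9 (0.85) and NLRC5 (0.65), and HLA-B (0.28), HLA-C (0.20) and HLA-E (0.15) no longer passed the threshold. The calls on these heavy chains also rested on the acetate libraries: HLA-C was not called without any 1 of the 3, HLA-B without replicate 2 and HLA-E without replicate 2 or 3.

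Adding acetate to mtDNA gave the opposite direction for 3 processing genes. TAP1 was at 249.6, 207 and 229 CPM with mtDNA and at 124, 217 and 119.7 with both, a difference of -0.58 ± 0.14 on the log2 scale (adjusted p = 0.00119). PSMB9 fell by 0.51 ± 0.17 (adjusted p = 0.0153) and PSMB8 by 0.44 ± 0.16 (adjusted p = 0.0247). In all 3 genes the groups overlapped through replicate 2 alone. HLA-B (0.25 ± 0.12), HLA-C (0.03 ± 0.10), HLA-E (0.04 ± 0.08), HLA-F (0.19 ± 0.32), B2M (-0.11 ± 0.09) and NLRC5 (-0.49 ± 0.27) did not pass the threshold. The count was 0 higher and 3 lower, where 27.4% of all tested genes were higher and 29.9% lower, so the share of the 9 called lower was near that of all genes, and it was 1 higher and 3 lower at an unadjusted p under 0.05. Without replicate 2, NLRC5 (-1.22, adjusted p = 8.38e-09) and B2M (-0.22, adjusted p = 0.0168) were called lower as well, where 27.5% of all tested genes in that fit were lower, TAP1 was at -0.89 and PSMB9 at -0.78. The calls on PSMB8 and PSMB9 were lost without mtDNA replicate 1 or 3 and without combination replicate 1 or 3, and HLA-B was called higher without mtDNA replicate 1 (0.37) or combination replicate 1 (0.34) or 3 (0.38) and with DESeq2's size factors (0.28, adjusted p = 0.0472).

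The interaction, which subtracts the log2 fold change with mtDNA given alone from that with mtDNA added to acetate, tests whether the effects departed from simple addition of log2 changes. It was below 0 for all 9 genes, from -0.21 ± 0.11 for HLA-E to -0.91 ± 0.27 for PSMB9, and edgeR called 0 of 9 in either direction (0.0765% of all tested genes were called higher and 0.583% lower), with 6 of 9 lower at an unadjusted p under 0.05, where 6.57% of all tested genes were lower and 4.84% higher; DESeq2's Wald test and limma on TPM also called 0. The lowest adjusted p was 0.119, for HLA-C (-0.53 ± 0.15). Without combination replicate 2, 8 of the 9 were called lower, against 1.89% of all tested genes in that fit: TAP1 (-0.89, adjusted p = 3.59e-07) and NLRC5 (-1.33, adjusted p = 2.20e-05) had the smallest adjusted p, and HLA-F (-1.29, adjusted p = 0.195) was not called. That library was set apart in part by these 9 genes and was the highest of its group for each. Leaving it out therefore lowers all 9 combination means by construction, and those calls are a description. Without mtDNA replicate 2, B2M alone was called lower (-0.52, adjusted p = 0.0375). With no filter on low counts 7 were called lower, and with the study's rule in DESeq2 (an unadjusted p under 0.05 and an absolute log2 fold change over 0.5) 3 were. The study's methods state that rule for another experiment. No share of all genes is given for these settings, so the counts of 7 and 3 have no background.

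Set against Sen (IR), the direction depended on the addition and on the gene. With acetate alone all 9 stayed lower than in Sen (IR), from -0.47 ± 0.17 for PSMB8 to -1.46 ± 0.12 for HLA-B (33.2% of all tested genes were higher and 32.7% lower). The calls on PSMB8 (without Sen (IR) replicate 1 or 2 or acetate replicate 2) and HLA-F (without replicate 1 of either group) depended on single libraries. In TPM with limma 6 of the 9 were called lower, and PSMB8 (-0.13, adjusted p = 0.522), PSMB9 (-0.33, adjusted p = 0.113) and HLA-F (-0.25, adjusted p = 0.0848) were not. With mtDNA alone the processing genes and NLRC5 were above Sen (IR): PSMB9 by 0.95 ± 0.18 (adjusted p = 6.04e-05), PSMB8 by 0.78 ± 0.16 (adjusted p = 0.000224), NLRC5 by 0.76 ± 0.27 (adjusted p = 0.0161) and TAP1 by 0.70 ± 0.14 (adjusted p = 0.000133). For each of these 4 genes the lowest mtDNA library lay above the highest Sen (IR) library, and NLRC5 was at 0.68 (adjusted p = 0.0527) without mtDNA replicate 1. The heavy chains and B2M remained below Sen (IR), HLA-B by -1.24 ± 0.12, HLA-F by -0.95 ± 0.29, HLA-C by -0.85 ± 0.10, B2M by -0.72 ± 0.09 and HLA-E by -0.55 ± 0.08, all called lower. The split of 4 higher and 5 lower stands against 35.0% and 32.5% of all tested genes. In TPM, where the median of all tested genes lay 0.29 above Sen (IR), it was 4 higher and 4 lower, HLA-F not passing the threshold. The counts in TPM against Sen (IR) have no share of all genes beside them.

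In the combination, PSMB9 alone was above Sen (IR) (0.44 ± 0.18, adjusted p = 0.0368), 5 genes were below, from HLA-E at -0.51 ± 0.08 to HLA-B at -0.98 ± 0.12, and TAP1 (0.12 ± 0.14), NLRC5 (0.27 ± 0.27) and PSMB8 (0.34 ± 0.16) did not pass the threshold. Among all tested genes 32.2% were higher and 34.7% lower. In TPM 3 genes were higher (PSMB8, PSMB9 and TAP1) and 4 lower, with no share of all genes given. Without replicate 2 the split was 0 higher and 7 lower by edgeR (32.3% and 32.2% of all tested genes in that fit), TAP1 (-0.18, adjusted p = 0.0225) and NLRC5 (-0.44, adjusted p = 0.00367) being called lower, and PSMB9 was at 0.18 (adjusted p = 0.304). PSMB9 was also not called without Sen (IR) replicate 3 (0.37, adjusted p = 0.118). HLA-F was not called without Sen (IR) replicate 1 or 2 or combination replicate 1 or 3, whereas PSMB8 was called higher without combination replicate 1 (0.46) or 3 (0.55) and NLRC5 without replicate 1 (0.61).

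Across the 18 libraries the 9 genes were also compared by correlations of log2 CPM, which are a description since libraries of a group share their treatment. HLA-B correlated with HLA-C (r = 0.99), B2M (r = 0.96), HLA-F (r = 0.93) and HLA-E (r = 0.91), and PSMB9 with PSMB8 (r = 0.96) and NLRC5 (r = 0.94). TAP1 was nearer to PSMB8 (r = 0.74) and NLRC5 (r = 0.68) than to HLA-B (r = 0.12) or B2M (r = 0.17). B2M correlated with NLRC5 (r = 0.69) and PSMB9 (r = 0.69) more closely than TAP1 did with PSMB9 (r = 0.58).

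The immunoproteasome subunits were set against the constitutive catalytic subunits they replace, as ratios of TPM within a library. PSMB9 over PSMB6 had a mean of 0.0670 ± 0.00672 in Prol, 0.0429 ± 0.00416 in Sen (IR), 0.0250 ± 0.00406 after CCCP, 0.0366 ± 0.00286 with acetate, 0.106 ± 0.0305 with mtDNA and 0.0846 ± 0.0289 in the combination. In the combination it was 0.118 in replicate 2 and 0.0656 and 0.0703 in the other libraries. PSMB8 over PSMB5 followed the same order among the CCCP groups, at 0.141 ± 0.0219, 0.183 ± 0.0102, 0.389 ± 0.0843 and 0.346 ± 0.129, the last from 0.494 in replicate 2 and 0.288 and 0.257 in the others. With mtDNA the log2 ratio was higher than after CCCP alone by 2.06 ± 0.29 for PSMB9 over PSMB6 and by 1.45 ± 0.22 for PSMB8 over PSMB5, without overlap, and the exact two-sided permutation test gave p = 0.1 for each, the smallest that 3 libraries against 3 allow. PSMB10 over PSMB7 behaved otherwise: it was 0.0441 ± 0.00218 after CCCP, 0.0307 ± 0.00195 with acetate and 0.0518 ± 0.0122 with mtDNA. Its difference with mtDNA was 0.20 ± 0.21 with overlapping groups (p = 0.4, exact permutation), and with acetate -0.52 ± 0.07 without overlap (p = 0.1, exact permutation). Over the 24 ratio comparisons made, the Benjamini-Hochberg adjusted p of these exact tests ran from 0.15 to 0.9.

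**Figure D5:**
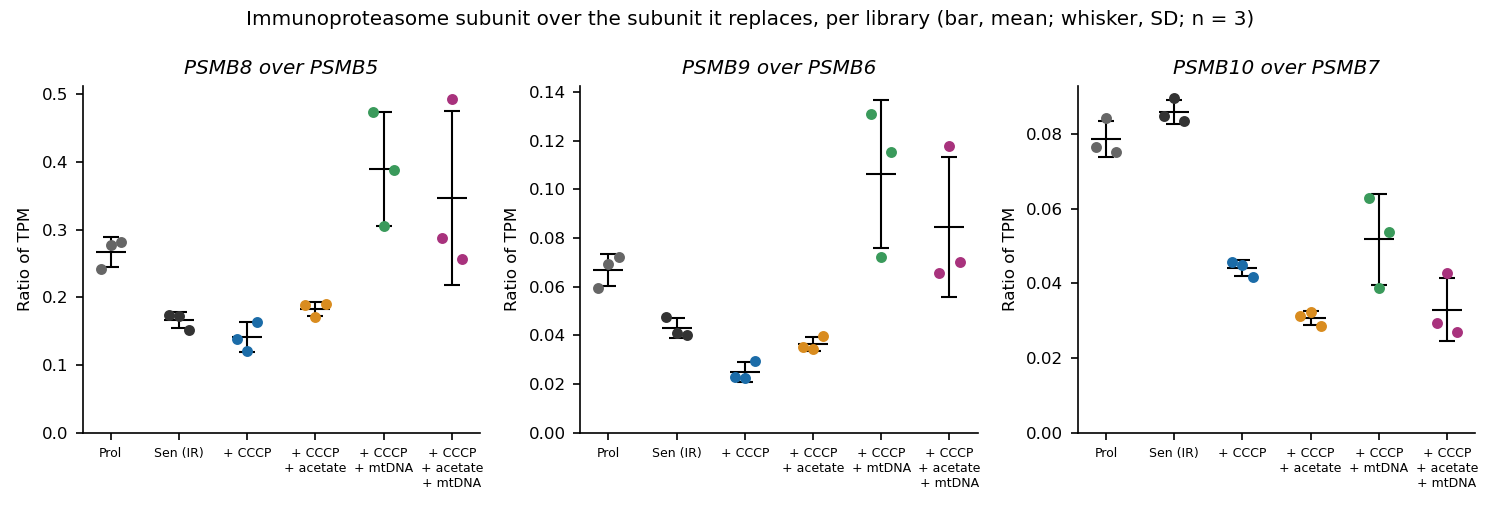
Ratio of TPM of each immunoproteasome subunit over the constitutive subunit it replaces, per library (points) with mean (bar) and SD (whisker), n = 3; each vertical axis starts at 0. The mtDNA libraries of PSMB8 over PSMB5 and PSMB9 over PSMB6 lie above all CCCP and acetate libraries, while those of PSMB10 over PSMB7 overlap the CCCP libraries.

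Of 11 further genes of peptide processing and loading, all 11 fell after CCCP (median log2 fold change -1.05, against 0.03 for all tested genes), where 31.3% of all tested genes were lower. The chaperone CALR fell by 1.59 ± 0.09 and TAPBP, which holds empty class I at the transporter, by 1.46 ± 0.08. With mtDNA 6 of 11 rose and 0 fell, where 10.7% of all tested genes were higher, among them TAP2 (0.85 ± 0.13), the partner of TAP1, and the proteasome activator subunits PSME1 (0.85 ± 0.08) and PSME2 (0.81 ± 0.11). CALR (0.09 ± 0.09) and PSMB10 (0.33 ± 0.14) did not pass the threshold. With acetate 3 rose (PSME1 by 0.63 ± 0.08, PSME2 by 0.30 ± 0.11 and the trimming peptidase ERAP1 by 0.22 ± 0.08) and PSMB10 fell by 0.46 ± 0.15, where 28.8% of all tested genes were higher. Against Sen (IR), mtDNA left 0 of these 11 higher and 10 lower, where 35.0% and 32.5% of all tested genes were, with TAP2 at 0.22 and not called. In the combination 6 were above Sen (IR) + CCCP and 1 below, against 30.3% and 31.4% of all tested genes. Without replicate 2 the counts were 5 and 1, against 29.0% and 28.3% of all tested genes in that fit.

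The 14 constitutive subunits of the proteasome core moved little by comparison: 9 fell and 2 rose after CCCP with a median of -0.28 (31.3% and 34.0% among all tested genes), and with mtDNA 3 rose and 0 fell with a median of 0.04 (10.7% and 7.40% among all tested genes). PSMB5, PSMB6 and PSMB7 differed by 0.02, -0.03 and 0.11 with mtDNA and were not called. Of 4 other class I or class I-like heavy chains (HLA-G, HFE, MR1 and FCGRT), all 4 fell after CCCP (31.3% of all tested genes were lower), and HLA-G did so by 2.04 ± 0.31. With acetate 2 of the 4 rose, MR1 (0.27) and the neonatal Fc receptor FCGRT (0.54 ± 0.07), where 28.8% of all tested genes were higher, and with mtDNA none of the 4 passed the threshold by edgeR, HLA-G coming nearest at 0.85 ± 0.35 (unadjusted p = 0.0228, adjusted p = 0.0982).

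Among 12 factors known to act at class I promoters, 5 fell and 5 rose after CCCP, where 31.3% and 34.0% of all tested genes did, and 5 rose and 0 fell with mtDNA, against 10.7% and 7.40%. IRF1, a transcription factor induced by interferon and NF-kB, rose by 1.00 ± 0.11 with acetate and by 0.83 ± 0.11 with mtDNA. With acetate 10 of the 12 rose and 2 fell, against 28.8% and 28.3% of all tested genes, and those that rose included RFX5 (0.50), RFXAP (0.67) and RFXANK (0.35), the subunits of the RFX complex that were not called with mtDNA. Whether these 3 responses differed between the treatments was not tested.

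Genes of the MHC class II pathway, which is the mark of professional antigen-presenting cells, were low or at 0, the highest being HLA-DMA with at most 6.46 CPM and HLA-DPB1 with at most 3.29 CPM in any library. Of 11 class II pathway genes 4 passed the filter, HLA-DRA, HLA-DQA1 and HLA-DQB1 had 0 counts in all 18 libraries, and the summed level of the 11 was 3.93 to 9.34 CPM per library. HLA-DMA, a class II loading factor, rose by 1.80 ± 0.17 with acetate and differed by -0.12 ± 0.21 with mtDNA. CD74, the invariant chain, was at 0.0279, 0.0252 and 0 CPM after CCCP and 0.587 to 0.729 in Sen (IR), so a fitted fold change would rest on at most 1 count per CCCP library and is not given. Of the 4 tested genes 2 fell after CCCP (31.3% of all tested genes), 2 rose with acetate (28.8%) and 1 rose with mtDNA (10.7%). CD74 is among these 4, so the counts share its limit.

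Near the 9 genes, PSMB8-AS1, an antisense transcript that shares 602 bases of its span with PSMB8 and 2365 with PSMB9, was at 1.28, 1.31 and 1.02 CPM after CCCP and 5.21, 3.02 and 3.75 with mtDNA, a rise of 1.71 ± 0.23. It is not known whether counting told its reads from those of PSMB8, and it shares its strand with PSMB9. HLA-F-AS1, which overlaps HLA-F by 11928 bases on the opposite strand, was not called in that comparison (-1.17). The class I pseudogene HLA-H fell after CCCP by 1.33 ± 0.17 and rose with mtDNA by 0.61 ± 0.18, and its reads may in part be those of intact class I genes.

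The 8 genes whose log2 CPM followed the mean of the 9 standardised class I genes most closely across the 18 libraries were LY6E (r = 0.99), GBP1 (0.97), PSME2 (0.97), IFI27 (0.97), MOB3C (0.96), TRIM5 (0.95), ATP10A (0.95) and IFITM3 (0.95). The correlation of each of the 9 genes with that mean was 0.82 to 0.91 except for TAP1, at 0.53. LY6E was at a mean of 71.7 ± 5.95 CPM in Sen (IR), 17.9 ± 0.610 after CCCP, 22.3 ± 1.19 with acetate and 58.1 ± 5.51 with mtDNA. IFI27 went from 17.7 ± 1.85 CPM in Sen (IR) to 0.194 ± 0.0255 after CCCP and 10.7 ± 3.89 with mtDNA. Without combination replicate 2, 6 of the 8 genes were again among the nearest 8.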

How the data were processed

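RNA-seq of 18 IMR90 libraries in 6 groups of 3 was taken from the tables the authors deposited. The authors deposited raw counts per gene and, in a separate table, TPM per gene. The submitters' processing notes name Trimmomatic 0.36, STAR 2.5.2b and featureCounts from Subread 1.5.2, with GRCh38. Per the study's methods, reads mapping to more than 1 place were left out and strand was used for libraries that keep it. Whether these libraries do, and how the deposited TPM were made, are not given in the sources used here. Reads of alleles that differ from the reference, or of near-identical heavy chain genes, may be lost or shared, so levels of HLA genes are uncertain to that degree.

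The members and gene lists were chosen with earlier results of these data known. Groups and replicate numbers came from the sample titles, and the members were all 9 genes named in the opening. The table held 57500 genes, 485 of them without a symbol. Counts were tested with edgeR 4.0.16 (R 4.3.3): TMM normalisation, filterByExpr by group (16994 genes tested), 1 quasi-likelihood model of all 18 libraries (common biological coefficient of variation 0.0644), and a Benjamini-Hochberg adjusted p under 0.05 over all tested genes, for 12 comparisons. CPM used the TMM-scaled library sizes. Every fold change is an edgeR estimate unless another tool is named, with its SE. Shares of all tested genes come from the edgeR fits. None is given for TPM with limma, for DESeq2 or for the fit with no filter, so counts called under those have no background. The TPM, on the log2(TPM + 1) scale with a pseudocount of 1, were tested with limma 3.58.1 as an alternative, and DESeq2 1.42.0 was another. Ratios of TPM were compared with exact two-sided permutation tests (scipy 1.17.1), for which 3 against 3 gives p = 0.1 at the smallest. Total counts of 24624886 to 46224280 per library set the precision, and a floor of 3 counts corresponds to 0.0649 to 0.122 CPM before TMM scaling. These limits cover counting error only.

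In data simulated for mtDNA over CCCP with 16471 genes, the script recovered 80% of 100 genes changed by 1 and 88% of 100 changed by 2 on the log2 scale. It made 5 false calls there, and 0 among 16481 genes when none was changed. Only those genes were changed, in the mtDNA group alone. Comparisons with many changed genes and the interaction were not covered. Promoter windows and their letters came from RefSeq (GRCh38.p14), aligned with Biopython 1.88, and gene spans from GENCODE on GRCh38. Named genes were the 9 members, at most the 4 genes with the largest called change per list and comparison, any gene needed beside a result, and the 8 tested genes with the highest Pearson correlation with the members' mean. 2 further genes of the lists are not reported here. Whether same-numbered libraries deviated together was checked over 45 pairs of libraries (r from -0.082 to 0.0917), and the numbers were not taken to pair them. No 2 libraries held identical counts. Figures were drawn with matplotlib 3.10.9.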

Additional observations from a re-analysis of the deposited data

Results flagged for a closer look

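Among the class I genes and the lists set beside them, 1 gene passed the interaction test of acetate and mtDNA with all libraries, which compares the response to mtDNA with and without acetate. PSME1, a subunit of the proteasome activator PA28, was at 35.2, 32.0 and 34.0 CPM in Sen (IR) + CCCP, 52.6, 49.5 and 54.1 with acetate, 65.1, 55.9 and 61.0 with mtDNA and 63.8, 74.0 and 60.6 in the combination. Its log2 fold change with mtDNA added to acetate, less that with mtDNA given alone, was -0.50 ± 0.11 (edgeR adjusted p = 0.0313), so it rose less with mtDNA where acetate was present. Without combination replicate 2 the value was -0.59 (adjusted p = 0.000489). Groups of 3 were too small to test for outlying libraries.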

How the results depend on the processing

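Over the 9 genes and 12 comparisons, 108 log2 values were recomputed under each alternative. With DESeq2's Wald test 104 kept their side of the threshold and 4 lost it. With DESeq2's size factors 107 were unchanged in call and 1 gained one. With at least 10 counts in every library 95 of 96 were unchanged in call, HLA-F having been removed by that filter. In TPM with limma 87 were unchanged in call, 13 lost it, 4 gained one and 4 changed sign. With no filter 90 were unchanged, 1 lost and 17 gained a call. With the study's rule 93 were unchanged, 11 lost and 4 gained a call, and with only the groups compared 96 were unchanged, 7 lost and 4 gained a call and 1 changed sign. The replicate numbers did not pair the libraries (8 of 18 were closest to their own number), and with the replicate block all 108 values kept their call, HLA-B in Sen (IR) over Prol being at 0.14 in place of 0.15. Of 702 values with 1 library left out, 640 were unchanged in call, 30 lost significance, 20 gained it and 12 changed sign. The causes of the changes below were not tested. No share of all genes is set beside the counts below, so they are not read against a background.

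With DESeq2's size factors and with no filter on low counts, the combination over mtDNA had 1 gene higher in place of 0. With no filter, Sen (IR) over Prol had 3 lower in place of 1, CCCP over Prol 1 higher in place of 0, the combination over Sen (IR) 3 higher in place of 1, and the interaction 7 lower in place of 0. Fitting only the groups compared gave B2M 0.0119 in Sen (IR) over Prol, 1 higher in place of 0 in CCCP over Prol, 5 higher in place of 8 in the combination over acetate, 1 lower in place of 3 in the combination over mtDNA and 0 higher in place of 1 over Sen (IR), from fewer libraries. The study's rule gave 1 higher in place of 2 in Sen (IR) over Prol, 3 in place of 5 with acetate, 1 lower in place of 3 in the combination over mtDNA, 0 higher in place of 1 over Sen (IR) and 3 lower in place of 0 for the interaction. In TPM with limma, CCCP over Prol had 1 higher in place of 0, acetate 3 in place of 5 and the combination over Sen (IR) 3 in place of 1. In TPM the sign also changed, without a call, for B2M in Sen (IR) over Prol (0.0508), NLRC5 with acetate (-0.0122), and HLA-C (-0.0401) and HLA-E (-0.0292) in the combination over mtDNA.

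With 1 library left out, the number higher ranged from 2 to 4 in Sen (IR) over Prol, from 0 to 3 in the combination over Sen (IR), from 5 to 8 over acetate and from 0 to 1 over mtDNA, where the number lower ranged from 1 to 5. The interaction ranged from 0 to 8 lower, with 8 only without combination replicate 2. TAP1 ranged from -0.0094 to 0.0217 with acetate and from -0.18 to 0.30 in the combination over Sen (IR), where NLRC5 ranged from -0.44 to 0.61. HLA-F ranged from -0.31 to 0.30 in the combination over acetate and from -0.18 to 0.45 over mtDNA, where HLA-C ranged from -0.11 to 0.13 and HLA-E from -0.0756 to 0.12. The log2 ratio of PSMB10 over PSMB7 ranged from -0.13 to 0.20 in the combination over acetate. At 9 to 57 counts per library, HLA-F was the gene most limited by depth.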
